A study of Mus musculus with 20 samples.

Results

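The comparison asks whether a null mutation changed the same genes, by the same amount, in the cortex and in the hippocampus of the mouse brain. It rests on the 10 arrays whose titles name these regions, of 20 arrays in all, 5 per region. Each array set amplified RNA of a region from a null mutant mouse against pooled wild-type RNA of that region in the other channel. The null RNA lay in channel 1 on 3 arrays of each region and in channel 2 on 2, the dye swaps. Where arrays of one region carried the same number their values were averaged, which left 3 replicates in hippocampus and 4 in cortex, the last of them a dye swap whose title has no number. The labels give neither age, sex, strain nor the allele, do not say whether different numbers stand for different mice, and do not say how many mice a wild-type pool held. The p-values therefore cover only the spread among these samples, part of it possibly technical. The pools' own spread is in no error given here.

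Cortex and hippocampus are both forebrain tissues rich in glutamatergic neurons, with inhibitory interneurons, astrocytes, oligodendrocytes, microglia and vessels among them. The cortex is layered and sends its output widely through the brain, while the hippocampus is a folded circuit of granule and pyramidal cells known for its role in memory. The striatum, the thalamus and the choroid plexus lie close to them. In bulk tissue such as this, fewer cells of a type and less RNA per cell cannot be told apart.

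All values are log2 ratios of null over wild type after each array was centred on its median, and a difference is the ratio in cortex minus the ratio in hippocampus. Neither the log base nor the channel order is given in the sources used, so the direction is likely only: with the opposite order every sign turns. Each of the 10 arrays had values for 7662 to 13963 of 15245 probes, and the small number of arrays limits the precision. Before turning, arrays of opposite orientation correlated between -0.50 and 0.30 in cortex and between -0.56 and 0.17 in hippocampus, below 0 in 4 of 6 and 3 of 6 pairs. Eif2s3y, a gene of the Y chromosome, had a ratio of -1.36 in replicate 1 of cortex and -1.14 in replicate 1 of hippocampus. It lay between 1.04 and 1.64 in the other 5 replicates, the unnumbered one at 1.61 among them. Number 1 therefore did not set the same RNA against the same pool as the other replicates. A ratio does not show whether the null RNA or the pool differed in sex. An alternative given below averages the unnumbered array with number 1 despite these unlike values.

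The responses of the 2 regions resembled each other across features, and 1 gene differed between them past the threshold. Over the 6028 features measured in all 7 replicates, the region means correlated at r = 0.68 across features, which are not independent replicates. The median size of the difference over the 8319 features tested was 0.11, and 14 features differed by at least 1, 10 of them with the higher ratio in cortex. The test of the difference called 1 of 8319 features, or 0.012%, at an adjusted p under 0.05 (limma, Benjamini-Hochberg). Without adjustment, 168 features had p under 0.05 with the higher ratio in cortex (2.02%) and 162 with the higher ratio in hippocampus (1.95%). The replicates of the regions did not overlap at all in 145 of 7557 features with the higher ratio in cortex (1.92%) and in 130 with the higher ratio in hippocampus (1.72%).

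With the replicate number as a block, the fit over all 4 regions called 3 features (0.0361%), Xpo4 and a pair of probes without a gene name. The blocked fit over the 7 replicates of these regions called 42 (0.505%), 27 of them with the higher ratio in cortex. That last fit had 1 residual degree of freedom per complete feature and 85.7 prior degrees of freedom, so its spread comes almost wholly from the other features.

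Taken region by region, the same model called 278 features in cortex (3.34%), 98 higher and 180 lower in the null mutant, and 50 in hippocampus (0.601%), 11 higher and 39 lower. The cortex count ran from 5 without the unnumbered replicate to 1522 without replicate 1, and was 10 without replicate 3 and 32 without replicate 2. The hippocampus count was 6 without replicate 2 and 18 without replicate 3. The sizes of these counts are therefore no measure of which region responded more. In all, 28 features were called in both, which is 10.1% of the cortex calls and 56% of the hippocampus calls, and all 28 had one direction in both regions.

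**Figure D1:**
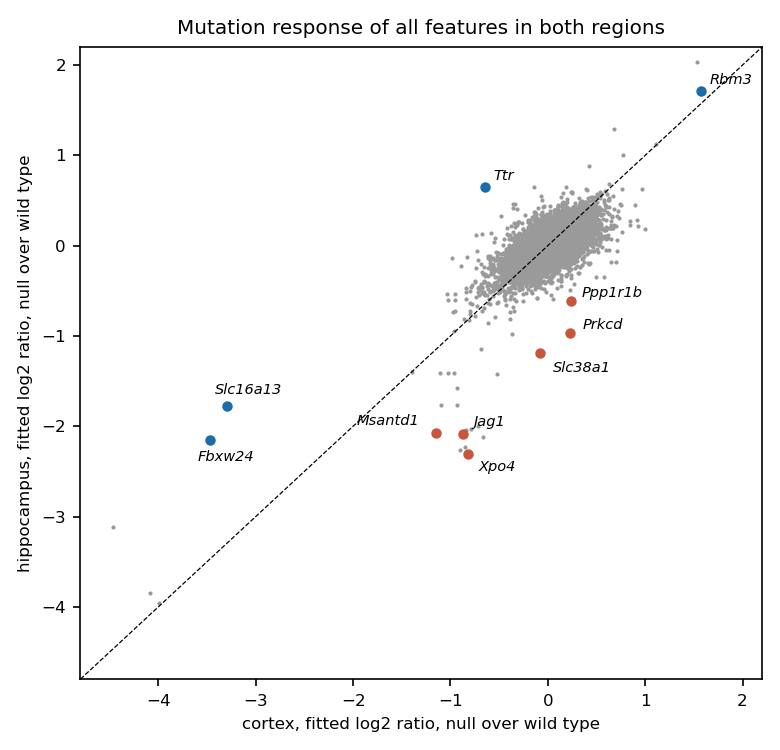
Fitted log2 ratio, null over wild type, in cortex (horizontal) and hippocampus (vertical), 1 point per feature for the 8319 features tested, with equal response on the dashed line. Named genes in red had the higher ratio in cortex and those in blue in hippocampus; Rbm3 lies near the line at 1.58 and 1.72, and Prkcd at 0.23 and -0.97.

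Prkcd, which encodes the delta isoform of protein kinase C, was the gene that differed. Its ratio in cortex was 0.43, -0.04 and 0.24 in replicates 1 to 3 and 0.37 in the unnumbered replicate. In hippocampus it was -0.83, -1.28 and -0.68. Every hippocampus replicate lay below 0 and below every cortex replicate. The same held array by array, in both dye orientations: the 5 cortex arrays spanned -0.23 to 0.43 and the 5 hippocampus arrays -1.29 to -0.68.

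Prkcd fell by 0.97 ± 0.13 (SE, n = 3) in hippocampus, where adjusted p was 0.00197 in limma, and the fitted ratio in cortex was 0.23 ± 0.11 (SE, n = 4, adjusted p 0.204). The difference was 1.19 ± 0.16 (SE), a 2.29-fold unequal response, with adjusted p = 0.0332 and a 95% interval of 0.84 to 1.54. It had one sign within each number, at 1.27, 1.25 and 0.92 for numbers 1, 2 and 3. Cerebellum and brain stem-diencephalon had fitted Prkcd ratios of -0.08 and 0.08. Hippocampus differed from them by -0.89 (adjusted p 0.22) and -1.05 (adjusted p 0.271), neither past the threshold. The call in Prkcd ended in 18 of 31 other settings although its value stayed between 1.03 and 1.29. With the block over 4 regions the difference was 1.04 with adjusted p = 0.0707, and with the block over the 7 replicates it was 1.08 with adjusted p = 0.000109. On the same 7 replicates without a block it was 1.19, with adjusted p = 0.427 and 0.453 under the 2 filters. The main fit takes its spread from the replicates of all 4 regions.

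Prkcd is known for high expression in the thalamus, which lies next to the hippocampus, and markers of thalamus and habenula were listed for that reason. Of 24 listed genes 6 were measured, and 3 had the higher ratio in each region. The median ratio of these 6 in a replicate ran from -0.11 to 0.24 in cortex and from -0.12 to -0.05 in hippocampus. The list includes Prkcd itself, and the 0.24, in cortex replicate 3, was the value of Prkcd. Rora, a nuclear receptor of thalamic neurons, had fitted ratios of 0.09 in cortex and 0.25 in hippocampus, and Adarb1, an RNA editing enzyme, -0.04 and -0.05. Amotl1 had -0.27 and -0.10, and Tnnt1, a troponin, -0.08 and -0.24. None of the other 5 passed the test, even unadjusted. Whether thalamic tissue in a dissection had a part in the Prkcd result was not tested.

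Ppp1r1b encodes DARPP-32, a phosphatase inhibitor regulated by dopamine and known as a marker of striatal projection neurons. Its ratio in cortex was 0.34, 0.19, 0.29 and 0.30, the last in the unnumbered replicate. In hippocampus it was -0.94, -0.41 and -0.30. The groups did not overlap, and each of the 10 arrays fell on the side of its region. Non-overlap was a condition for choosing this gene, and Ttr, Anapc5, Itga1, Jag1, Xpo4 and Slc16a13 below. It is therefore no further evidence for them. Cortex arrays lay between 0.11 and 0.34 and hippocampus arrays between -1.06 and -0.30. The difference of 0.85 ± 0.19 did not pass the threshold (adjusted p 0.607 in limma), and neither did either region alone.

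Of 30 listed striatum markers 6 were measured, 5 with the higher ratio in cortex, against 47.5% of all features. Their median difference was 0.22, against -0.01 over all features, and 0.14, 0.11 and 0.54 within numbers 1, 2 and 3. The list includes Ppp1r1b itself, so its values partly repeat those of that gene. The list median lay between 0.01 and 0.16 in the cortex replicates and between -0.30 and -0.07 in the hippocampus replicates. The replicates did not overlap, but the -0.30, in hippocampus replicate 3, was the value of Ppp1r1b. The list without Ppp1r1b was not tested. Arpp19, a phosphatase inhibitor of the endosulfine family, had the next smallest p, with fitted ratios of 0.10 and -0.24. Its probes disagreed, with differences from 0.09 to 0.69. The largest came with a single value of -1.71 in hippocampus replicate 3. The probe with the smallest had array medians of -0.10 in cortex and 0.14 in hippocampus, the other way. Actn2, an actin cross-linker, ran the other way, at -0.25 in cortex and 0.03 in hippocampus. None of the 6 passed the threshold, and the part of striatal tissue in the Ppp1r1b values was not tested.

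**Figure D2:**
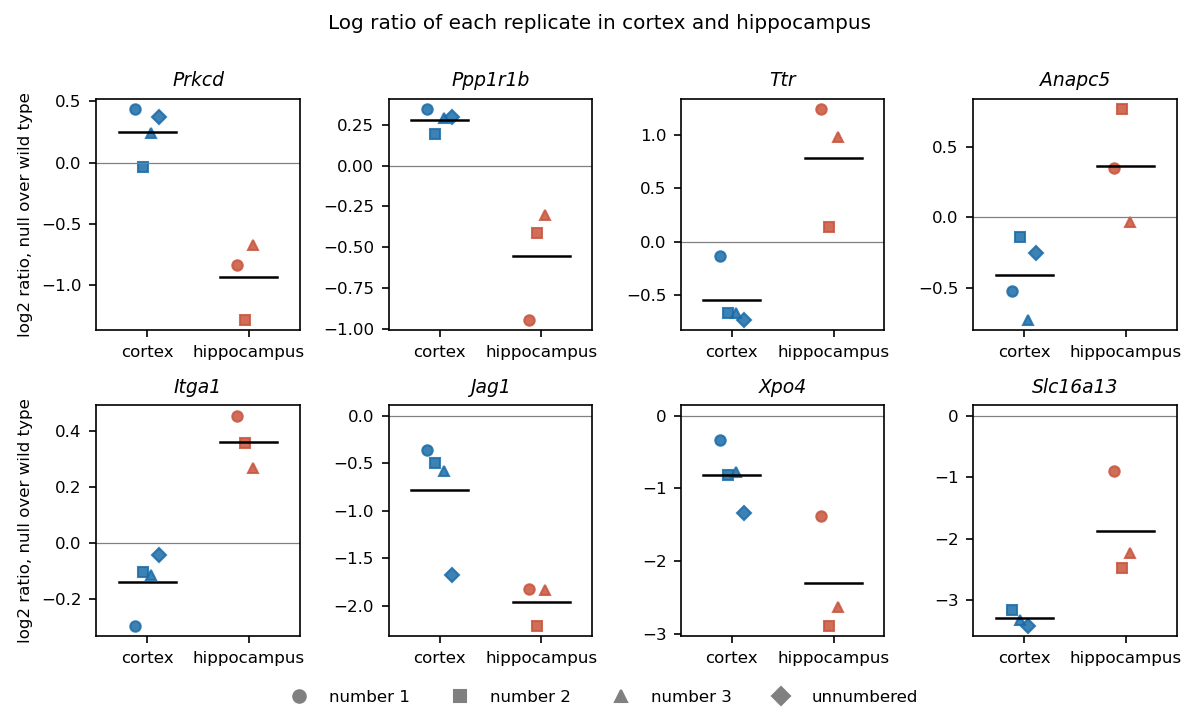
Log2 ratio of null over wild type in each replicate for 8 genes, cortex in blue and hippocampus in red, with the mean of the replicates as a black line and the labelled number as the shape of the point. The 8 genes are from those chosen because their replicates did not overlap, so no cortex point reaches a hippocampus point. The vertical scale differs between panels.

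Ttr, which encodes transthyretin, the thyroid hormone carrier made in bulk by the choroid plexus, had opposite signs in the 2 regions. The cortex ratios were -0.13, -0.67, -0.67 and, in the unnumbered replicate, -0.73. The hippocampus ratios were 1.24, 0.13 and 0.98. All cortex replicates were below 0 and all hippocampus replicates above it, replicate 2 of hippocampus by little. The fitted ratios were -0.65 ± 0.17 and 0.65 ± 0.20, and the difference of -1.30 ± 0.26 had adjusted p = 0.491. It passed the threshold only in the fits of the 7 replicates with the replicate block, at -1.22 with adjusted p = 1.11e-05 and, without the orientation term, at -1.27. Hippocampus minus cerebellum was 1.73 (adjusted p 0.0592).

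Of 35 listed genes of choroid plexus, ependyma and meninges 7 were measured, 3 with the higher ratio in cortex and 4 in hippocampus, and their median difference was 0.00 to 2 decimals. In the replicates the median of the list ran from -0.25 to 0.05 in cortex and from -0.05 to 0.08 in hippocampus. Col1a2, a collagen chain of the meninges, had fitted ratios of -0.16 and 0.15, in the direction of Ttr. Igf2, a growth factor secreted by choroid plexus and meninges, had -0.29 and -0.48, the other way. The fibrous extracellular genes Col3a1, Dcn and Lum each differed by less than 0.1. Whether choroid plexus carried along in a dissection had a part in the Ttr values was not tested.

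Anapc5, a subunit of the anaphase-promoting complex, was the feature with the second smallest p among genes with separate replicates. Its cortex ratios were -0.52, -0.14, -0.73 and -0.25, and its hippocampus ratios 0.35, 0.77 and -0.03. The highest cortex value stayed below the lowest hippocampus value by a narrow margin. The difference was -0.80 ± 0.14 with adjusted p = 0.314, and with the replicate block over 2 regions it was -0.80 with adjusted p = 0.0203. Replicate 2 of hippocampus averaged arrays of -0.10 and 1.64.

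Itga1, the alpha-1 subunit of collagen-binding integrin, had tightly grouped values. They were -0.30, -0.11, -0.11 and -0.05 in cortex and 0.46, 0.36 and 0.27 in hippocampus. All 5 hippocampus arrays were above 0.25, and no cortex array was above 0.01. The difference of -0.51 ± 0.11 had adjusted p = 0.555.

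A further group of features had lower ratios in hippocampus than in cortex while lying below 0 in both. It was picked after its values were seen and so carries no test as a group. It holds 4 genes, Jag1, Xpo4, Msantd1 and Khdc1b, and 6 probes without a gene name. Jag1, Xpo4 and the 6 probes differed by at least 1 and were called in hippocampus. Msantd1 and Khdc1b were added by name below that cut. The group is not complete, and further unnamed probes called in both regions were left out. Among them were a probe at -0.94 in cortex and -1.76 in hippocampus and another at -0.93 and -1.58. Others differed less, such as those with differences of 0.30, 0.38 and 0.44. Over the replicates of both regions each of the 9 others correlated with Xpo4 at r between 0.88 and 0.997, with 5 to 7 points. These points share the same arrays. All 10 features were chosen for a lower ratio in hippocampus, which by itself raises r, so r adds no further evidence. Fitted ratios ran from -1.15 to -0.66 in cortex and from -2.31 to -1.76 in hippocampus.

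Jag1 encodes a ligand of Notch receptors. Its cortex ratios were -0.36, -0.50, -0.59 and, in the unnumbered replicate, -1.68. Its hippocampus ratios were -1.82, -2.21 and -1.84. The unnumbered cortex replicate lay close to the hippocampus replicates, without overlap, and the other cortex replicates lay far from them. Jag1 fell by 0.87 ± 0.16 in cortex (adjusted p 0.0213) and fell by 2.09 ± 0.19 in hippocampus (adjusted p 0.000158). The difference of 1.21 ± 0.24 had adjusted p = 0.491, and 1.48 with adjusted p = 2.27e-08 in the blocked fit over 2 regions.

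Xpo4 encodes an exportin, a carrier that takes proteins out of the nucleus. Its cortex ratios were -0.33, -0.81, -0.78 and -1.33, and its hippocampus ratios -1.38, -2.89 and -2.63. Within numbers 1, 2 and 3 the ratio in cortex exceeded that in hippocampus by 1.05, 2.08 and 1.85. The difference of 1.49 ± 0.39 had adjusted p = 0.967 without a block, 0.0202 at a value of 1.86 with the replicate block over 4 regions and 4.73e-13 at 1.96 over 2 regions. In hippocampus Xpo4 fell by 2.31 ± 0.30 (adjusted p 0.00197). A second Xpo4 probe, with values on 3 hippocampus arrays only and outside the filter, ran from -0.51 to 0.03 there, so the probes of this gene disagree. Under the looser filter, which lets in more probes, the difference of Xpo4 was 0.43.

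Msantd1 had cortex ratios of -0.08, -0.995, -1.11 and -2.08 and hippocampus ratios of -1.36, -2.29 and -2.23. The regions overlapped through the unnumbered cortex replicate, and the difference of 0.93 ± 0.33 had adjusted p = 0.967. Within numbers it was 1.28, 1.30 and 1.12. With the replicate block over 4 regions it was 1.09 (adjusted p 0.105) and over 2 regions 1.21 (adjusted p 8.27e-06). Khdc1b was measured in 3 cortex and 2 hippocampus replicates, at -1.12, -0.85 and -1.33 against -1.19 and -2.33. Its difference was 0.66 ± 0.32 (adjusted p 0.967), 1.21 (adjusted p 0.00849) in the blocked fit over 2 regions and -0.46 under a looser filter that lets in further probes of the gene. In the other 2 brain regions the fitted ratios were -2.21 and -2.05 for Jag1, -1.95 and -2.07 for Xpo4 and -2.31 and -2.42 for Msantd1, each listed for cerebellum before brain stem-diencephalon. Hippocampus minus cerebellum was 0.12 for Jag1 and -0.36 for Xpo4, and cortex minus cerebellum was 1.33 (adjusted p 0.248) and 1.13 (adjusted p 0.576), none past the threshold.

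Slc16a13, a monocarboxylate transporter family member, was low in both regions and lower in cortex. Its cortex ratios were -3.15, -3.31 and -3.41 in replicates 2, 3 and the unnumbered one, and replicate 1 had no value. Its hippocampus ratios were -0.90, -2.47 and -2.24. It fell by 3.29 ± 0.32 in cortex (adjusted p 0.000632) and fell by 1.78 ± 0.34 in hippocampus (adjusted p 0.0326). The groups did not overlap, and the difference of -1.52 ± 0.47 had adjusted p = 0.967 and 0.00566 at -0.88 in the blocked fit over 2 regions. Under the looser filter it was -0.65. Replicate 1, the highest in hippocampus, has no counterpart in cortex. The other probe of Slc16a13, outside the filter, read 0.23 and 0.27 on 2 cortex arrays and -0.14 to 0.04 on 3 hippocampus arrays, so a fall of the gene rests on 1 probe.

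Fbxw24, an F-box protein, had a similar pattern, with -4.02 and -2.98 in cortex replicates 2 and 3 and -1.85, -2.55 and -2.12 in hippocampus. Its difference of -1.32 ± 0.51 had adjusted p = 0.967, and -1.16 with adjusted p = 3.01e-05 in the blocked fit over 2 regions. Without cortex replicate 2 it was -0.56, and with arrays scaled to one spread -0.69. Slc38a1, a neuronal glutamine transporter, differed by 1.12 through a single value of -3.91 in replicate 3 of hippocampus; the other 6 replicates lay between -0.38 and 0.02. Another Slc38a1 probe read -0.46 on that array, and without that replicate the difference was -0.14. In the blocked fit over 2 regions, which keeps that replicate, the difference was 1.86 with adjusted p = 2.69e-07.

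Of the remaining genes chosen by smallest p among those whose replicates did not overlap, 8 had the higher ratio in cortex, with differences from 0.41 to 0.68. Cks2, a cofactor of cyclin-dependent kinases, had 0.61, 0.59 and 0.69 in cortex replicates 2, 3 and the unnumbered one against -0.28, 0.03 and 0.11 in hippocampus. Rspo3, a secreted enhancer of Wnt signalling, had 0.22, 0.34 and 0.38 in the same cortex replicates against -0.60, -0.04 and -0.28. In both genes these cortex values were all positive and these hippocampus values near or below 0. Another Rspo3 probe, outside the filter, ran from -0.10 to 0.41 on 3 cortex arrays. On 4 hippocampus arrays it ran from 0 to 0.46, so the probes of Rspo3 disagree. Tpp1, a lysosomal peptidase, differed by 0.43 ± 0.14, and Copa, a coatomer subunit of transport vesicles, by 0.41 ± 0.14. Pigc, an enzyme of GPI anchor synthesis, differed by 0.53 ± 0.14, Tbc1d9b by 0.47 ± 0.14, the zinc finger gene Zfp84 by 0.47 ± 0.15 and Plekha5 by 0.42 ± 0.13. The difference of Tbc1d9b was 0.30 with the replicate block over 2 regions and that of Rspo3 0.33 under the looser filter. None of the 8 passed the threshold in any setting.

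Another 8 genes of that choice had the higher ratio in hippocampus. Fth1, the ferritin heavy chain that stores iron, had 0.28, -0.04, 0.09 and 0.10 in cortex against 0.51, 0.35 and 0.49 in hippocampus, where it rose by 0.44 (adjusted p 0.035). The lowest hippocampus value stood only slightly above the highest cortex value, and the difference of -0.34 ± 0.11 did not pass. Micos10, a subunit of the mitochondrial cristae complex, had -0.60, -0.36, -0.51 and -0.62 in cortex against -0.28, -0.03 and -0.13. It fell by 0.51 in cortex (adjusted p 0.0114), and its difference was -0.37 ± 0.13. Noct, a circadian phosphatase, differed by -0.36 ± 0.12, Psmb3, a proteasome subunit, by -0.72 ± 0.24, and Fam220a by -0.84 ± 0.24. Psd4, an exchange factor for ARF6, differed by -0.34 ± 0.12, Gins4, of the replicative helicase, by -0.43 ± 0.15, and Cd2ap, an adaptor of the actin cytoskeleton, by -0.38 ± 0.14. Another Cd2ap probe, outside the filter, read 0.05 and 1.08 on 2 cortex arrays and -0.13 to 0.52 on 4 hippocampus arrays. Its array medians were 0.56 in cortex and 0.35 in hippocampus, the other way. Psmb3 rested on a ratio of 1.14 in hippocampus replicate 3, and its difference was -0.24 without that replicate. With the replicate block over 4 and 2 regions the difference was -0.22 and -0.15 for Fam220a, -0.20 and -0.28 for Gins4 and -0.20 and -0.15 for Cd2ap. None of these 8 passed the threshold of the difference in any setting.

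Ribosomal protein genes had the most one-sided counts of the listed groups. Of 68 measured genes for cytosolic ribosomal proteins, 61 had the higher ratio in hippocampus and 7 in cortex, or 89.7% against 52.5% of all features. No single gene passed the threshold. Of the 68, 5 had an unadjusted p under 0.05, all higher in hippocampus, against 1.95% of all features in that direction. The replicates of 3 of 67 such genes did not overlap, all higher in hippocampus, against 1.72% of all features in that direction. The median difference of the list was -0.16, against -0.01 over all features.

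The ribosomal median in each replicate was 0.19, 0.02 and -0.04 in cortex replicates 1 to 3 and -0.11 in the unnumbered one, and 0.20, 0.12 and 0.25 in hippocampus. Replicate 1 of cortex lay among the hippocampus replicates, so the regions overlapped. Within numbers the median difference was -0.05, -0.06 and -0.25, one sign in all 3 and largest in number 3. Rpl10a had fitted ratios of -0.09 and 0.28, Rps19 0.17 and 0.47, Rps16 -0.02 and 0.28 and Rplp2, a stalk protein of the large subunit, 0.03 and 0.38. Over 31 other settings the list median stayed between -0.25 and -0.12.

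Genes of oxidative phosphorylation, which make mitochondrial ATP, gave a similar count. Of 53 measured, 40 had the higher ratio in hippocampus (75.5%), with a median difference of -0.15. The median was 0.10, -0.07, -0.07 and -0.15 in the cortex replicates, the last unnumbered, and 0.15, 0.01 and 0.13 in hippocampus. The regions overlapped again through replicate 1 of cortex, and within numbers the difference was -0.06, -0.00 and -0.18. The list median moved to -0.08 both without cortex replicate 3 and without the unnumbered replicate, to -0.23 without cortex replicate 1 and to -0.06 without hippocampus replicate 1. Ndufs4, a subunit of complex I, had fitted ratios of -0.26 and 0.06 and did not overlap between regions, and Ndufb5, of the same complex, had -0.14 and 0.13.

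The proteasome and ubiquitin conjugation list had 37 of 61 measured genes higher in hippocampus (60.7%) and a median difference of -0.08, which was -0.02 without hippocampus replicate 3. Its replicate medians overlapped, at 0.06, 0.10, 0.04 and -0.09 in cortex and 0.04, 0.13 and 0.18 in hippocampus. Of 57 chaperone and ER stress genes 36 were higher in hippocampus (63.2%), with a median difference of -0.04. Manf, a factor secreted under ER stress, had fitted ratios of -0.24 and 0.11. Psmd7, a subunit of the proteasome lid, had -0.09 and 0.25.

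**Figure D3:**
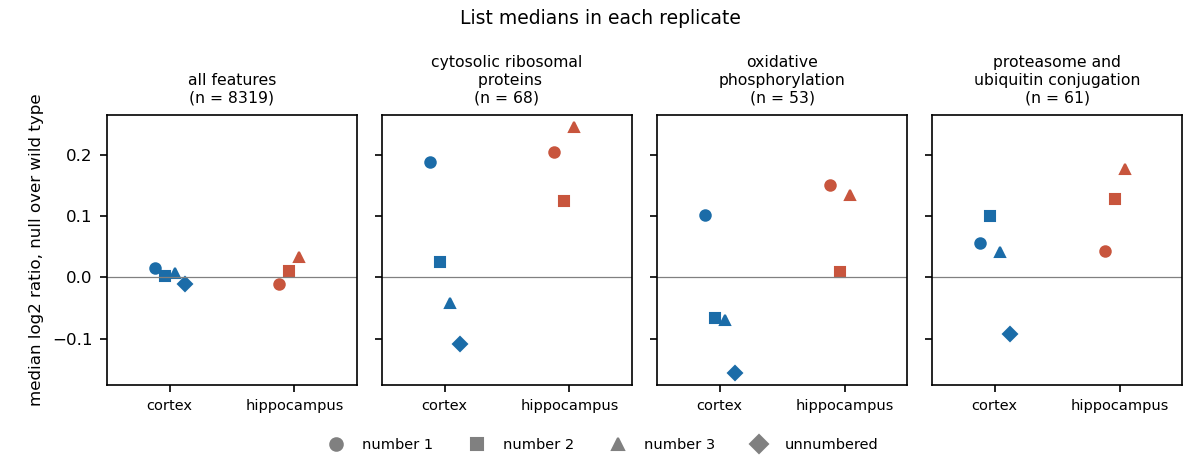
Median log2 ratio of null over wild type in each replicate for all features and for 3 gene lists, cortex in blue and hippocampus in red, with the labelled number as the shape of the point. In the ribosomal list the hippocampus points lie between 0.12 and 0.25, cortex replicate 1 is at 0.19 and the other cortex points are at or below 0.02.

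Genes of acid-base transport and the sodium pump, which set ion gradients and pH in cells, split evenly. Of 21 measured, 10 had the higher ratio in cortex and 11 in hippocampus, none had an unadjusted p under 0.05, and the median difference was -0.01. The replicate medians ran from -0.15 to 0.03 in cortex and from -0.21 to 0.03 in hippocampus. The vacuolar proton ATPase, which acidifies vesicles and lysosomes, had 4 of 10 genes higher in cortex. Atp6v1b2, its B2 subunit, had fitted ratios of 0.68 in cortex, where it rose (adjusted p 0.0257), and 0.23 in hippocampus.

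Lists of neuronal function showed no common direction either. Voltage-gated channels had 6 of 12 measured genes higher in each region, and activity-regulated genes 8 of 15 higher in cortex. Ier5, an immediate early gene, fell by 0.68 in cortex (adjusted p 0.023) with a fitted ratio of -0.20 in hippocampus, and its replicates overlapped. The synaptic vesicle list had 15 of 23 genes higher in cortex, with a median difference of 0.03. Glutamate and GABA receptor and synapse genes had 4 of 10 higher in cortex, with a median difference of -0.09 that was 0.03 without hippocampus replicate 1, and Dlg2, the scaffold protein PSD-93, had fitted ratios of 0.14 and -0.32. The list of protein kinase C, calcineurin and cyclic nucleotide signalling, which holds Prkcd and Ppp1r1b, had 19 of 39 higher in cortex. Ppp3ca, the catalytic subunit of calcineurin, had fitted ratios of 0.25 and, in hippocampus, 0.59, where it rose (adjusted p 0.0196).

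Markers of other cell types were compared in the same way. Hippocampal neuron markers had 7 of 12 measured genes higher in hippocampus, with replicate medians of -0.05 to 0.18 in cortex and -0.06 to 0.19 in hippocampus. Stxbp6, a syntaxin-binding protein, had fitted ratios of 0.14 and 0.54. Microglial and complement genes had 8 of 11 higher in hippocampus, astrocyte markers 10 of 16, and vessel and erythrocyte genes 7 of 17. Myelin and oligodendrocyte markers had 3 of 8 higher in hippocampus, and sterol and fatty acid synthesis genes 6 of 17. Bcas1, a marker of young oligodendrocytes, had -0.08 and -0.37. Cytoskeleton and 14-3-3 genes had 26 of 48 higher in hippocampus. Apart from Prkcd, no gene of any list passed the threshold of the difference.

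The defining markers of the 2 tissues were sparsely measured. Of 56 listed cortical layer markers 4 were measured, 3 of them with the higher ratio in hippocampus, and of 30 GABAergic interneuron markers none was. Among neuropeptides and secretory granule genes 3 of 44 were measured. A ratio of null over wild type does not show how strongly a marker was expressed, so the labelled tissue could not be checked against absolute levels.

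**Figure D4:**
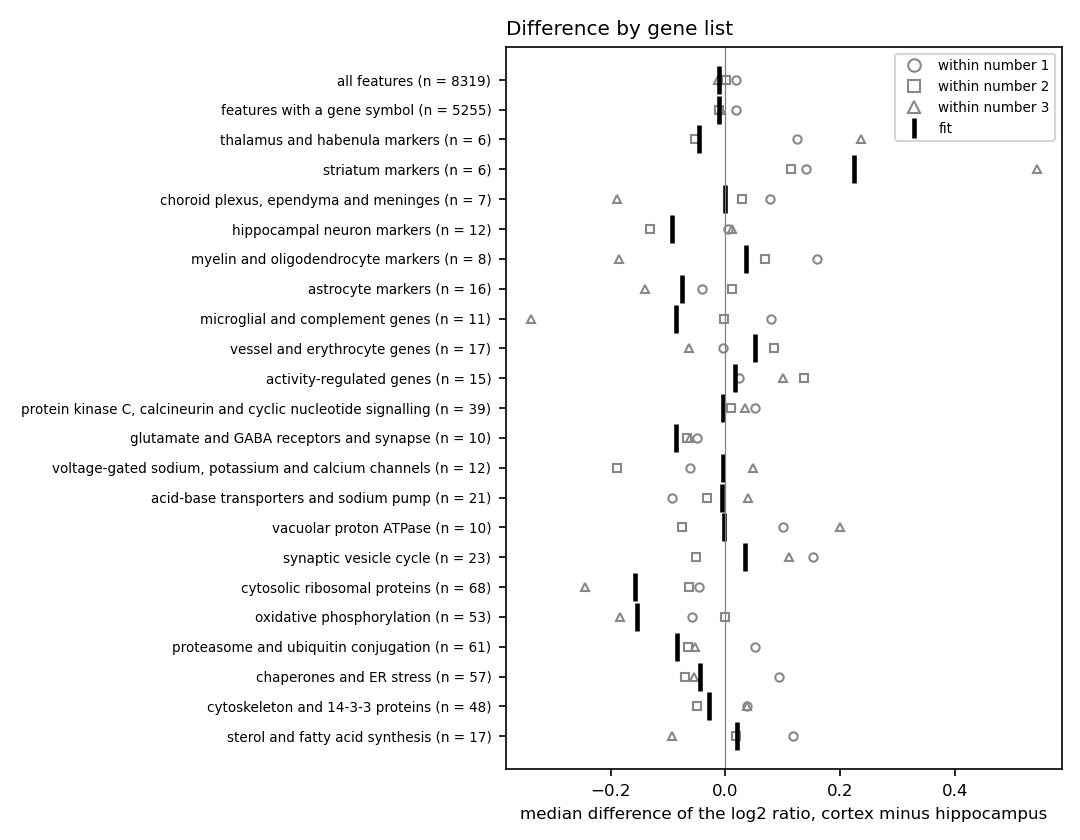
Median difference of the log2 ratio, cortex minus hippocampus, for all features and each gene list with at least 5 measured genes; black bars are the medians of the fitted differences and open symbols those within numbers 1, 2 and 3. The ribosomal list, at -0.16, has all 3 numbers below 0. The striatum list, at 0.22 and with Ppp1r1b in it, has all 3 above 0.

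Among the genes called in both regions, Rbm3 and Cirbp had similar fitted ratios in each. They were not alone in this: Elovl5 had -0.60 in cortex and -0.59 in hippocampus, and Marcksl1 -0.56 and -0.55. Jag1 and Slc16a13 differed more, though not past the threshold. Rbm3, an RNA-binding protein induced by cold, had ratios of 1.61, 1.59, 1.5 and 1.67 in cortex and 1.42, 2.05 and 1.72 in hippocampus. The replicates overlapped, and the gene rose in both, by 1.58 ± 0.13 (adjusted p 7.43e-05) and 1.72 ± 0.15 (adjusted p 0.000158). The difference of -0.14 had a 95% interval of -0.55 to 0.28, which does not show that the responses were equal. Cirbp, a related cold-induced gene, rose by 0.49 (adjusted p 0.0396) and 0.48 (adjusted p 0.0406).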

How the data were processed

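The authors deposited 1 table of log2-like values, already ratios of the 2 channels; per the file header it names samples only, and no source used here gives the scanner, background correction, normalization or log base. The values were read as log2. Dye swaps were multiplied by -1, each array was centred on its median, arrays of a region and number were averaged, and then probes of a gene. A probe needed a value on at least 3 arrays of each of 4 regions and at least 1 of each orientation. Of 15245 probes, 9604 had 1 gene symbol, 213 several and 5428 none; 9496 symbols matched a current gene, and 8319 features were tested, 3064 without a single gene name.

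Limma 3.58.1 in R 4.3.3 fitted region and mean orientation over 13 replicates of 4 regions, with moderated variances (8 residual and 5.88 prior degrees of freedom) and Benjamini-Hochberg adjustment at 0.05, two-sided. The method was tested on simulated data with independent noise in each replicate. That test does not cover replicates that deviate together, as described next. Cortex and hippocampus replicates of one number deviated together from their group means (r = 0.59, 0.31 and 0.19 for numbers 1 to 3 over 6028 features). Values from fits blocked on that number are therefore given where they change the call of a gene described in the Results. The unnumbered cortex replicate deviated with hippocampus replicate 2 at r = 0.40, more than cortex replicate 2 did, and stood in a block level of its own. This pairing comes from the data; the labels do not state it. A dye swap of cerebellum and one of brain stem-diencephalon had nearly the same number of values (6793 and 6806) and SD (0.545 and 0.544). They were taken as 1 array deposited under both regions, which their titles do not state. It entered both regions and was left out in an alternative.

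Named genes, not all of them described here, are first those called in the main or blocked fits. Added to them are the 12 per direction with the smallest p among genes whose replicates did not overlap, and up to 4 per list. Eif2s3y, Rbm3 and Cirbp were also added. RIKEN clones, predicted genes and clone names were left out. Some genes called only in the blocked fit over 2 regions are not described in the Results. Rimklb, Spopl, Ciart, Atp11b and Fgf10 were higher in cortex there, by 0.76 to 1.05. Nsun2, Nfix, Nxf1, Septin10, Arhgap39, Tom1l1, Hoxc9 and Wdr74 were higher in hippocampus, at -1.26 to -0.75. The members, the 24 lists and the tests were chosen with earlier results of these data known. The averaging order was changed after a first fit, and the first order is among the alternatives. The mutated gene is not reported here.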

Additional observations from a re-analysis of the deposited data

Results flagged for a closer look

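Prkcd differed between the regions by the test of the difference itself, at 1.19 (cortex minus hippocampus, log2). In the 4 cortex replicates, 2 single values stood far from the other 3. Replicate 1 had a Ttr ratio of -0.13 where the median of the 4 was -0.67, and a Psd4 ratio of 0.22 where the median was -0.08. These were 2 of 58 groups of 4 examined, and chance sets apart about 1 in 20 such groups.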

How the results depend on the processing

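Of 74 genes followed through up to 31 other settings, 3 of them chosen after seeing the data, 63 kept the sign of their difference and 11 did not; the cause was not tested. These 74 were narrowed from 127 named genes after turned signs were seen; of the 53 left out, chiefly list genes with an unadjusted p of 0.05 or more, 13 turned, so 103 of 127 kept their sign. Without single replicates, Nxf1 ran from -1.23 to 0.012 (hippocampus 3), Slc38a1 from -0.135 (hippocampus 3) to 1.76, Tom1l1 from -0.82 to 0.026 (cortex 3), Amotl1 from -0.30 to 0.035 (cortex 3), Fgf10 from -0.052 (cortex 3) to 0.42, Rbm3 from -0.29 to 0.037 (hippocampus 2), Slc6a13 from -0.139 to 0.029 (cortex 4, the unnumbered one), Rora from -0.35 to 0.154 (cortex 1; 0.022 for hippocampus 2) and Tnnt1 from -0.115 (cortex 1) to 0.46, the replicate that turned the sign in parentheses. Khdc1b read -0.46 under the looser filter. With the replicate block Meis2 read -0.025 (2 regions) and -0.092 (no orientation term), Tnnt1 -0.174 (4 regions) and Slc6a13 0.040, 0.072 and, without the repeated array, 0.034. Without the channel 1 arrays of number 1 Rora read 0.117 and Tnnt1 -0.073. Cirbp and Eif2s3y are given by level only, since their differences turned in 14 of 30 and 5 of 31 settings.

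The count of differing features was 0 with the 7 replicates alone under both filters. It was also 0 without the array taken as repeated under both other regions and without the channel 1 arrays of number 1. With the unnumbered array averaged with number 1 or 3 the count was 0, and 0 to 1 when single replicates were left out. It was 3 and 42 with the replicate block (4 and 2 regions), 14 without the orientation term and 7 without the repeated array. In the same settings that gave 0, Prkcd read 1.19 (adjusted p 0.427 and 0.453), 1.19 (0.0567), 1.14 (0.119), 1.13 (0.097) and 1.17 (0.0614), with 1.04 (0.0707) under the replicate block over 4 regions and 1.03 to 1.29 without single replicates; a smaller design and fewer replicates are part of these settings by construction.

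The cortex count of 278 became 44 with arrays scaled to one spread, 17 and 19 with the 7 replicates alone, 2 and 18 with the replicate block, 9 and 12 with its added forms, 1 with a variance trend and robust moderation, 1438 without the channel 1 arrays of number 1, 746 with each array kept, 78 and 7 with the unnumbered array averaged with number 1 or 3, and 5 to 1522 without single replicates. The hippocampus count of 50 became 25 and 29 with the 7 replicates alone, 33 on complete features, 33 and 112 with the replicate block, 138 with the block and no repeated array, 12 with trend and robust moderation, 145 without the channel 1 arrays of number 1, 183 with each array kept and 6 to 58 without single replicates. Signal over background was not analysed here, so low ratios may rest on dim spots.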
